A study of Mus musculus with 6 samples.

Results

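The alpha and beta crystallins are 8 genes of the mouse lens: the alpha crystallins Cryaa and Cryab, the acidic beta crystallins Cryba1, Cryba2 and Cryba4, and the basic beta crystallins Crybb1, Crybb2 and Crybb3. They were chosen by name, and all 8 were found among the 27179 gene identifiers of the deposited expression table. Their messenger RNA was measured by RNA sequencing in whole lenses of mouse pups on postnatal day 1 (P1). There were 3 libraries of Gclc KO lenses (KO here) and 3 of Gclc CON lenses, the controls (CON), and all 6 shared the strain B6/FVB, the age and the tissue. Where 3 values are given for a group, they stand in the order of its replicate numbers 1, 2 and 3. The product of Gclc is the catalytic part of glutamate-cysteine ligase, which carries out the first step of glutathione synthesis. The labels do not name a Cre driver, the altered exons, the alleles of CON, the sex or the number of animals behind a library. The p-values below therefore concern these libraries and not a known number of animals. Those from limma, and their SEs, also draw on the spread of the other tested genes. Gclc itself had 17.9, 72.1 and 58.1 normalised reads in KO, against 178, 283 and 173 in CON (log2 difference -1.01, limma adjusted p = 0.0387). Log2 differences here use the deposited values, whose variance-stabilising transformation understates changes of genes with few reads: the ratio of the KO to the CON mean of Gclc was 0.234 in normalised reads.

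Crystallins are the soluble proteins that fill the elongated fibre cells of the lens and give it its refractive power. Alpha crystallins are small heat shock proteins: they keep other proteins, the beta and gamma crystallins among them, from clumping. Beta crystallins assemble with each other into larger complexes, whereas the related gamma crystallins are monomers, and loss or mutation of genes of each of these families causes cataract. Crystallin genes are switched on as lens cells leave the epithelium and become fibres, under transcription factors such as PAX6, MAF, SOX and PROX1 proteins, and HSF4.

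The 4 members printed first below carry TGCTGAC, the core of the site at which MAF proteins bind. They are shown with Crybb2, the member whose reads behaved most differently. Each line gives the 200 bases before the annotated start on the gene's own strand, 5′ to 3′, from RefSeq on GRCm38.p6, with capitals for TGCTGAC and for the TATA box TATAAA. The windows are chr17:31677731-31677930 (plus strand) for Cryaa, chr11:77725294-77725493 (minus) for Cryba1, chr5:112252519-112252718 (minus) for Cryba4, chr5:112255620-112255819 (plus) for Crybb1 and chr5:113070118-113070317 (minus) for Crybb2.
Cryaa: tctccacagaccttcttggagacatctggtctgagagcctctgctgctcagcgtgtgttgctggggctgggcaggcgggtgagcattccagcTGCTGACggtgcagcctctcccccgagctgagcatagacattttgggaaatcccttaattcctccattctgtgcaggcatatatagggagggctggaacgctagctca
Cryba1: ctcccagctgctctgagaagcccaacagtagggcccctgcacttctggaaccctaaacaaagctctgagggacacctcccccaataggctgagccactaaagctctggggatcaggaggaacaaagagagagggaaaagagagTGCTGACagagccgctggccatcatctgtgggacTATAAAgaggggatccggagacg
Cryba4: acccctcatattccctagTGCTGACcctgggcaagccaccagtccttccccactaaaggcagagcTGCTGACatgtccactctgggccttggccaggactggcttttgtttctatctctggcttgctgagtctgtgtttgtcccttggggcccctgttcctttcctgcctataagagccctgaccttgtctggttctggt
Crybb1: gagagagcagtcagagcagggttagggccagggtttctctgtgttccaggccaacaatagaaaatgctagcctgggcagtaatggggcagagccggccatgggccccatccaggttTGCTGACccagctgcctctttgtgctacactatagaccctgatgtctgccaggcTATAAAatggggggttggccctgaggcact
Crybb2: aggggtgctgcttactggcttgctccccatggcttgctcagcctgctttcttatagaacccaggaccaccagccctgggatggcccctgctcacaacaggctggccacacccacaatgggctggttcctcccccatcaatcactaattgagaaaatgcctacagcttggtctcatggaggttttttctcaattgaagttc
In the 250 bases before the start, searched on both strands, TGCTGAC was found for 4 of the 7 members in the RefSeq table and in 3.81% of its 32851 promoters. The matches began 108 bases before the start in Cryaa, 57 in Cryba1, 182 and 135 in Cryba4, and 84 in Crybb1. TGCTGAC was not found for Cryba2, Crybb2 or Crybb3, and Cryab was not among the 7 and was not searched. Without the motif, Cryba2 and Crybb3 still fell in KO (log2 differences -1.47 and -1.38), against -1.36 to -1.50 for the 4 carriers. TATAAA was found for Cryba1 and Crybb1 (12.37% of all promoters), and ACAAAG, the core at which SOX proteins bind, for Cryba1, Crybb1 and Crybb3 (16.46%). GAANNTTC, one form of the core of a heat shock element, was found for 0 of the 7 (6.69% of all promoters). Other forms of that core were not searched. The window of Crybb2 lies before its most upstream annotated start, and other transcripts of Crybb2 start further in. These matches describe the letters of the windows, and binding was not measured.

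The libraries held 45842484 to 61219009 reads in genes in KO and 20361430 to 43384443 in CON. Normalised reads are reads divided by the size factor of the library, as recovered from the deposited values, and 1000 of them are called a kiloread below. Size factors ran from 1.6634 to 1.892 in KO and from 0.3178 to 0.9473 in CON, so that the groups differed in size factor by more than in total reads. The lens label fitted the reads: the 16 alpha, beta and gamma crystallins took 40.5% to 47.5% of reads in KO and 59.5% to 68.4% in CON. CON 2 was the shallowest library, and the lane suffix in its name differs from that of the rest. Reads carry no molecular identifiers, so they are not counts of molecules.

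Together, the alpha and beta crystallins took 35.4%, 30.3% and 35.1% of all reads in KO, against 47.0%, 48.0% and 49.4% in CON (33.6% ± 2.88 in KO and 48.1% ± 1.22 in CON, SD, n = 3 each). Every KO library lay below every CON library. On the normalised scale, 6 of the 8 genes fell in KO (adjusted p under 0.05, limma on the deposited log2 values, adjusted over 11468 tested genes) and 0 rose. Over all tested genes, 4.39% were called lower and 6.91% higher. Voom on the recovered reads with the same size factors also called 6 of the 8 lower and 0 higher, where it called 4.12% of all tested genes lower and 3.67% higher. The 6 genes held 35.4% to 39.1% of their CON means in KO, whereas Cryab held 66.4% and Crybb2 93.1%. The median log2 difference of the 8 genes was -1.41, where that of all tested genes was 0.03. Higher calls made up 61.1% of all calls on the deposited scale, 47.3% after library medians were made equal and 97.5% when total reads set the scale. In bulk RNA, fewer fibre cells and less RNA per fibre cell cannot be told apart.

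**Figure D1:**
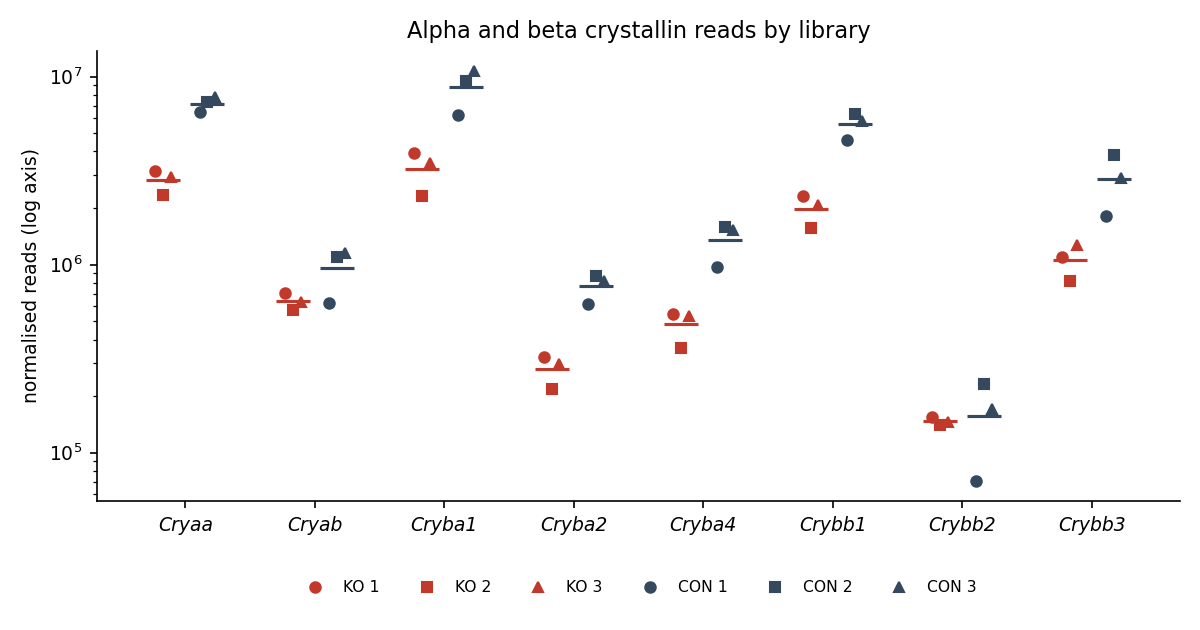
Normalised reads of each alpha and beta crystallin on a log axis, with 1 point per library (KO left of CON for each gene) and a bar at the group mean. The 3 KO points lie below the 3 CON points for 6 genes, while those of Cryab and Crybb2 overlap with CON because of CON 1.

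Among the alpha crystallins, Cryaa, which in mammals is expressed mainly in the lens, had 3161, 2344 and 2924 normalised kiloreads in KO, against 6513, 7311 and 7751 kiloreads in CON. The groups did not overlap, as was the case with KO below CON for 14.1% of all tested genes. Cryaa averaged 2809 ± 420.1 kiloreads in KO and 7192 ± 628 kiloreads in CON (SD, n = 3 each; log2 difference -1.36, SE 0.37, adjusted p = 0.0342). Cryab, whose chaperone is also made in muscle, heart and glia, had 711, 575 and 630.0 kiloreads in KO, against 628, 1103 and 1155 kiloreads in CON. CON 1 lay within the KO range and the other two CON libraries above it. The difference of Cryab was -0.55 (SE 0.32, 95% interval -1.24 to 0.15, adjusted p = 0.305).

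The acidic beta crystallins fell together. Cryba1, which encodes both the A3 and the A1 chain of beta crystallin, had 3919, 2331 and 3484 normalised kiloreads in KO, against 6287, 9520.4 and 10691 kiloreads in CON (log2 difference -1.44, SE 0.41, adjusted p = 0.0433). Cryba2 was a less abundant member, with 324, 218 and 295 kiloreads in KO, against 617, 873 and 823 kiloreads in CON. Its log2 difference was -1.47 (SE 0.28, adjusted p = 0.00692). The order of the genes by p depended on the mean-variance trend of the limma fit. Without that trend, the SE was 0.25 for Cryba2 and 0.23 for Cryaa (limma adjusted p = 0.00611 and 0.00546). Cryba4 had 548, 360.3 and 535 kiloreads in KO, against 968, 1578 and 1533 kiloreads in CON (-1.49, SE 0.32, adjusted p = 0.0120). For each of these 3 genes KO 2 was the lowest KO library and CON 1 the lowest CON library, and no KO value reached the CON range.

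Of the basic beta crystallins, Crybb1, whose chain has long terminal extensions, had 2319, 1563 and 2074 normalised kiloreads in KO, against 4611, 6318 and 5830.2 kiloreads in CON (log2 difference -1.50, SE 0.36, adjusted p = 0.0211). Crybb3 had 1104, 819 and 1269 kiloreads in KO, against 1818, 3823 and 2884 kiloreads in CON (-1.38, SE 0.37, adjusted p = 0.0343). Both lay lower in every KO library than in any CON library. Crybb2, whose protein accumulates in the mouse lens after birth and is a main beta crystallin of the adult lens, had 155, 139.8 and 146 kiloreads in KO, against 71.0, 232 and 170.3 kiloreads in CON. Its KO libraries lay close together (147 ± 7.75 kiloreads, SD, n = 3) and inside the wide CON range (158 ± 81.1 kiloreads, SD, n = 3). The difference of Crybb2 was 0.06 with a 95% interval from -0.75 to 0.86 (SE 0.37, adjusted p = 0.944).

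On the normalised scale, libraries shifted together within each group. KO 2 was the lowest KO library for 8 of 8 genes, and CON 1 the lowest CON library for 8 of 8. The highest CON library was CON 2 for 5 genes and CON 3 for 3. As percent of all reads this order did not hold. CON 1 was then the highest CON library for Cryaa (14.2%, against 11.4% and 12.4%) and Crybb1 (10.1%, against 9.86% and 9.34%). KO 2 was then the highest KO library for Cryab and Crybb2. How often other genes shared the order was not counted. With 1 library left out, the log2 differences of the 6 genes that fell stayed between -1.13 and -1.72, while their calls came and went. Cryba2 was called lower whichever library was left out (adjusted p up to 0.0407). Cryba4 lost its call without CON 2 or CON 3 (adjusted p up to 0.0634) and Crybb1 without KO 2, KO 3, CON 2 or CON 3 (up to 0.0985). Cryaa, Cryba1 and Crybb3 were called lower without CON 1 and lost their calls without any 1 of the other 5 libraries (up to 0.139, 0.176 and 0.146). Without CON 1, Cryab was called lower too (-0.83, adjusted p = 0.0463), and Crybb2 stood at -0.44 (adjusted p = 0.184).

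A term for the form of the library name, which KO 2 and KO 3 share, leaves KO 1 as the only KO library in the contrast with CON. In that fit 0 of the 8 genes were called, with differences from -1.30 to 0.14, and it says nothing of whether the form of the name bears on the fall. Quantile normalisation forces the most abundant genes of all libraries to equal values, and there only Cryba4 was called lower (-0.43), while Cryab (0.49) and Crybb2 (1.08) were called higher.

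**Figure D2:**
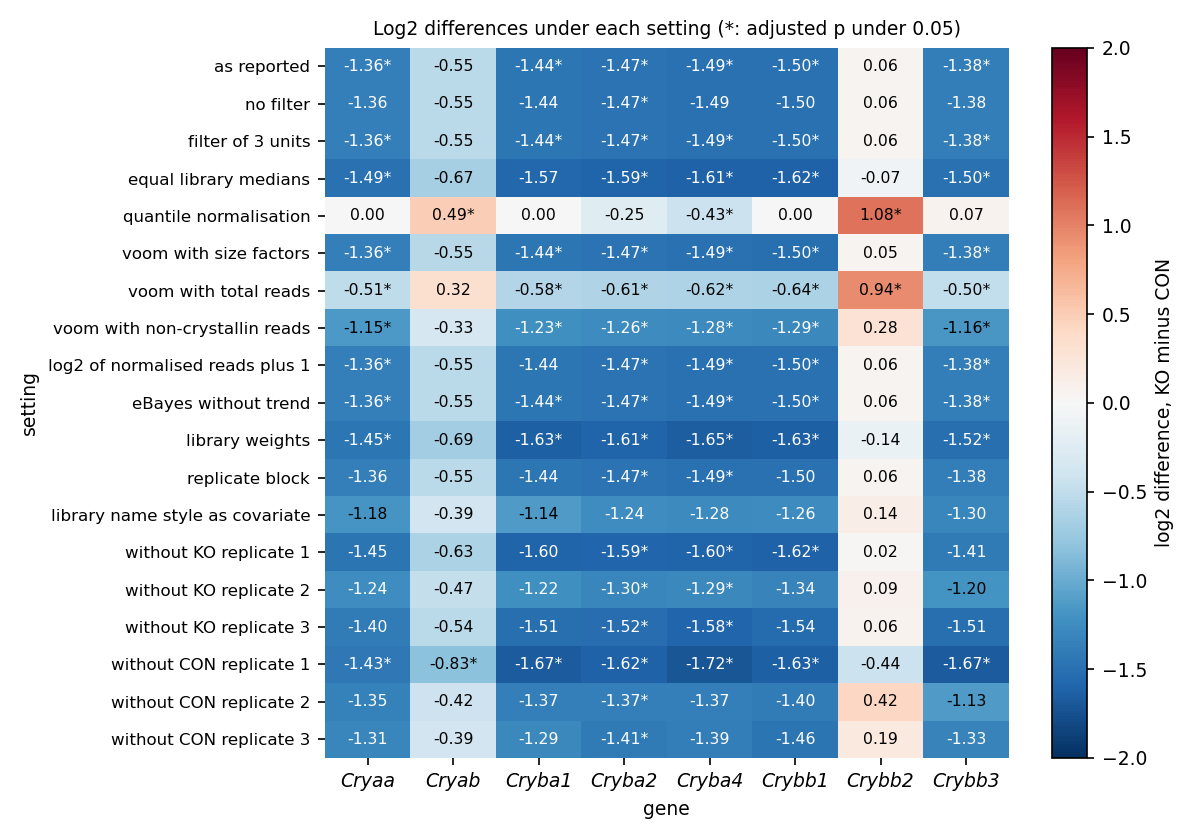
Log2 differences (KO minus CON, colour and printed value) of the 8 genes in columns under each setting in rows, with a star where the adjusted p is under 0.05. The columns of the 6 genes that fell are dark to mid blue except under total reads (paler) and quantile normalisation (pale to white), Crybb2 is near 0 in most rows, and it is called higher with quantile normalisation and with total reads.

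Since scaling moves the whole family up or down, the genes were also set against one another within each library. Taken as shares of all alpha and beta crystallin reads, Cryaa made up 26.5% ± 1.32 in KO and 26.4% ± 3.43 in CON, and Crybb3 10.0% ± 1.09 in KO and 10.1% ± 2.08 in CON (SD, n = 3 each). Cryba1 made up 30.2% ± 2.09 in KO and 31.6% ± 2.78 in CON, Crybb1 18.6% ± 0.347 in KO and 20.3% ± 1.28 in CON, and Cryba4 4.50% ± 0.199 in KO and 4.87% ± 0.329 in CON. The groups overlapped for these 5 genes.

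The shares of Cryab and Crybb2 were larger in KO. Cryab made up 5.81%, 6.88% and 5.55% of the family's reads in KO, against 2.92%, 3.59% and 3.75% in CON. Crybb2 made up 1.27%, 1.67% and 1.28% in KO, against 0.330%, 0.754% and 0.552% in CON. Cryba2 moved slightly the other way, at 2.62% ± 0.0235 in KO and 2.79% ± 0.106 in CON (SD, n = 3 each). For these 3 genes the groups did not overlap, and the two-sided exact permutation test gave p = 0.1, the smallest that 3 libraries against 3 can give (adjusted p = 0.267 over the 8 shares).

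**Figure D3:**
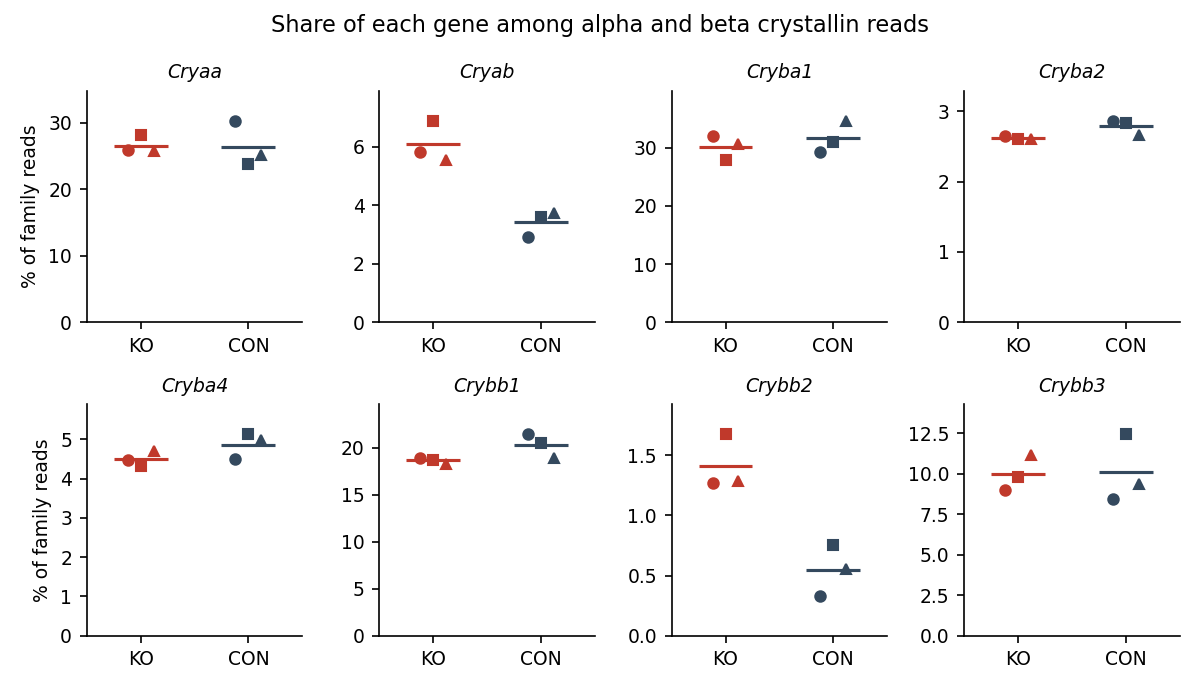
Share of each gene among all alpha and beta crystallin reads (%, axes from 0), with 1 point per library, KO left of CON, and a bar at the group mean; circles, squares and triangles mark replicates 1, 2 and 3. The KO points of Cryab (5.55% to 6.88%) and Crybb2 (1.27% to 1.67%) lie above all CON points, and the other panels differ little.

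Ratios between pairs of related genes show the same contrast. They rest on the same reads as the shares, so they are no separate support, and they carry no test. Reads of Cryab per read of Cryaa came to 0.225, 0.245 and 0.216 in KO, against 0.0965, 0.151 and 0.149 in CON. Reads of Crybb2 per read of Crybb1 came to 0.0669, 0.0895 and 0.0702 in KO, against 0.0154, 0.0367 and 0.0292 in CON. In both ratios every KO library lay above every CON library. The ratio of Cryba4 to Crybb1 was 0.242 ± 0.0144 in KO and 0.241 ± 0.0277 in CON, and that of Cryba1 to Cryaa 1.14 ± 0.130 in KO and 1.22 ± 0.220 in CON (SD, n = 3 each), both with overlap.

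A limma fit on the log2 values minus the library mean of the other 7 members tested whether a gene differed from its family. Crybb2 was higher in KO by 1.37 relative to the rest (SE 0.25, adjusted p = 0.00268) and Cryab by 0.68 (SE 0.13, adjusted p = 0.00373). Both were called in each of the 9 alternatives tried for this fit, the 6 with 1 library left out included (adjusted p up to 0.0248 for Crybb2 and 0.0288 for Cryab). On this scale 71.4% of all tested genes were called higher and 0.218% lower, since the subtracted mean was itself lower in KO. The median over all tested genes was 1.17. With so many genes called, adjustment raised p little: the limma p of Cryba1 went from 0.0237 to 0.0366. In the plain fit of KO against CON it went from 0.00451 to 0.0433. A call is thus easier to reach here, and in the fits against fibre genes and gamma crystallins below.

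Relative to the rest, Cryba1 (-0.35, adjusted p = 0.0366), Cryba2 (-0.38, 0.0276), Cryba4 (-0.40, 0.0163) and Crybb1 (-0.41, 0.0202) were lower. Their reference includes Crybb2 and Cryab, which raise it in KO. With the median of the other 7 as reference, Cryba2 and Cryba4 lost their calls (-0.09 and -0.11, adjusted p = 0.626 and 0.508). Cryaa (-0.25, adjusted p = 0.163) and Crybb3 (-0.27, adjusted p = 0.110) were not called. The number of genes called in either direction, 6 in all, was 2 without KO 2 and 3 without KO 3 or without CON 3.

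The other genes of fibre cells gave a second yardstick. Of 16 listed fibre genes other than crystallins, 11 fell and 0 rose (median log2 difference -1.18), against 5 and 1 with total reads. They include Mip, the lens water channel, with 49253 to 64240 normalised reads in KO and 182280 to 222690 in CON (-1.79, adjusted p = 0.000656), and Lgsn, which encodes lengsin (-2.04, adjusted p = 0.00101). Summed, they held 346845 to 480547 normalised reads in KO and 897042 to 1158950 in CON. With the library mean of these genes subtracted, 6 alpha and beta crystallins stood between -0.31 and -0.45 and were not called, and Cryab stood at 0.50 (95% interval -0.09 to 1.10, adjusted p = 0.106). Crybb2 stood 1.11 higher in KO (SE 0.33, adjusted p = 0.00618) and was called in all 11 alternatives of this fit, with differences from 0.61 to 1.46. Among these alternatives, the one with gamma crystallins as reference and the one without Mip and Lgsn were not planned. With the mean of the 16 fibre genes subtracted, 81.5% of all tested genes were called higher and 0.340% lower. The median on that scale was 1.08, so Crybb2 stood near the median gene. Without CON 1, Cryba1, Cryba2, Cryba4, Crybb1 and Crybb3 were called lower as well (-0.57 to -0.67).

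**Figure D4:**
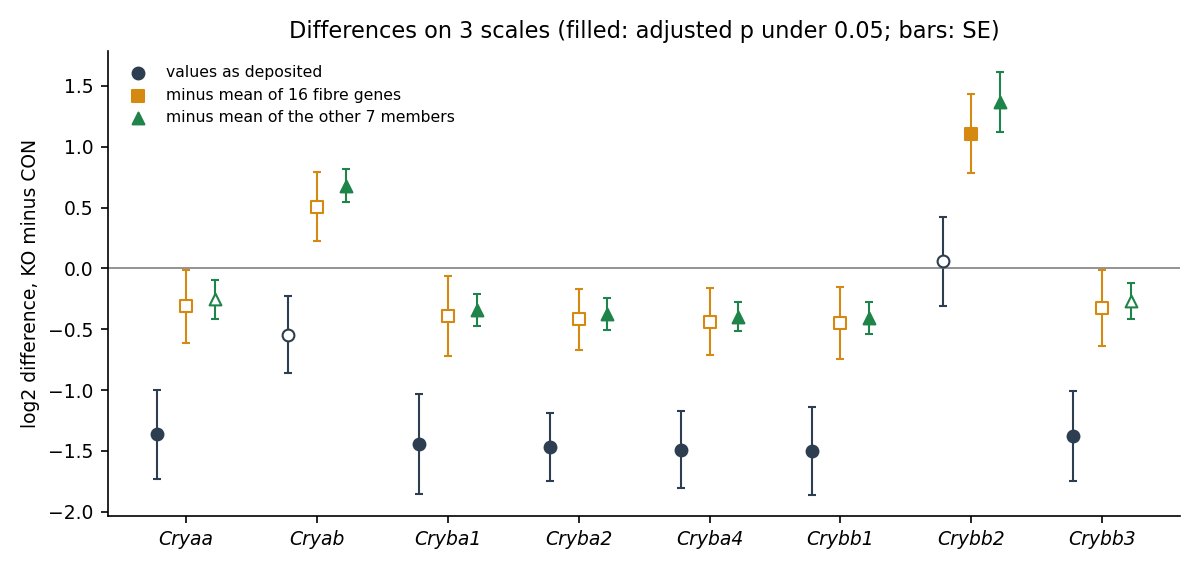
Log2 differences (KO minus CON) with SE for each gene on 3 scales: the deposited values, values minus the mean of 16 fibre genes, and values minus the mean of the other 7 members. Filled symbols have an adjusted p under 0.05; Crybb2 lies above 1 on the last 2 scales, and Cryab is filled on the last.

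With total reads as the scale (voom), Crybb2 was called higher (0.94, adjusted p = 0.0236) and Cryab stood at 0.32 (adjusted p = 0.0582). The 6 others stayed lower, at -0.50 to -0.64. The median over all tested genes was 0.86 on that scale, where 28.9% of genes were called higher and 0.741% lower, so each of the 8 except Crybb2 lay below the median gene. Cryab took 2.06%, 2.09% and 1.95% of all reads in KO, against 1.37%, 1.72% and 1.85% in CON. Crybb2 took 0.449%, 0.507% and 0.450% in KO, against 0.155%, 0.362% and 0.273% in CON.

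Levels of the genes were compared with one another as TPM (reads per kilobase of transcript, scaled to the same total in each library), with the median length of a gene's transcripts. Cryaa came first among all genes of the table, at 91556 ± 2490.1 TPM in KO and 125170.0 ± 17710 TPM in CON (SD, n = 3 each). Cryba1 followed at 86060.0 ± 11959 in KO and 123141 ± 13123 in CON, and Crybb1 at 68964 ± 5114 in KO and 102840.0 ± 5746 in CON. The per-library ranges of Cryaa and Cryba1 overlapped in both groups, as did those of Cryba1 and Crybb1 in KO but not in CON. The order of Cryaa, Cryba1 and Crybb1 changed when the longest transcript was used. Crybb3 came next within the family, at 38085 ± 5466 in KO and 52389 ± 9509 in CON.

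The lower end of the family changed its order. In KO, Cryab (21995 ± 924 TPM) stood above Cryba4 (18300.3 ± 2048), with no overlap of the 3 libraries each. In CON, Cryba4 (27054 ± 1678) stood above Cryab (17041 ± 2261), again with no overlap. With the longest transcript, Cryba4 stood above Cryab in both groups. Cryba2 stood at 9752 ± 763 in KO and 14239 ± 409 in CON. Crybb2 was the lowest of the 8 in both groups, at 6546 ± 541 TPM in KO and 3487 ± 1288 TPM in CON, and still ranked 15 among all genes in KO and 17 in CON.

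Reads of the 8 genes can be told apart by sequence: no stretch of 50 bases in their annotated transcripts was shared with another crystallin gene. Overlap on the chromosome is another matter, since the sources used here do not say whether reads were counted by strand. Cryba4 and Crybb1 have overlapping gene models on chromosome 5. From the starts of the printed windows these genes run apart on opposite strands, so the overlap needs a longer gene model of at least 1 of them. The gene model of Cryab on chromosome 9 overlaps that of Hspb2, another small heat shock protein gene. Hspb2 had 1960.4, 2105 and 2074 normalised reads in KO, against 1853, 3572 and 3294 in CON (log2 difference -0.42, adjusted p = 0.314). As for Cryab, CON 1 lay beside the KO libraries. Crybb2 lies next to Crybb3 on chromosome 5, with 0.141, 0.171 and 0.115 reads of Crybb2 per read of Crybb3 in KO, against 0.0391, 0.0606 and 0.0591 in CON. Of the other named neighbours, U2af1 beside Cryaa (-0.62, adjusted p = 0.213), Nufip2 (-0.95, 0.157) and Myo18a (0.58, 0.259) beside Cryba1, Mn1 (0.73, 0.147) and Tpst2 (0.05, 0.930) beside Cryba4 and Crybb1, and Dixdc1 (0.21, 0.710) beside Cryab were not called. The locus 1110032A03Rik, on the other side of Cryab and named after its values were seen, was called lower (-0.83, adjusted p = 0.0456).

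The gamma crystallins, the third large crystallin family, stood low as well. Of 8 tested, 4 fell and 0 rose (median log2 difference -1.29), and 7 fell with voom on the recovered reads and the same size factors, and 3 with voom and total reads. These were Crygn (-2.07, adjusted p = 0.00270), Crygf (-1.44, 0.00708), Crygd (-1.09, 0.0239) and Cryga (-1.50, 0.0266). Crygb (-1.45, adjusted p = 0.05004), Cryge (-0.91, 0.0629), Crygc (-1.13, 0.0705) and Crygs (-0.79, 0.0965) did not pass. Between 4.64% and 48.3% of the 50-base stretches of Cryga to Crygf are shared among them, so their reads are not safely separate. Per read of a gamma crystallin there were 2.93, 2.96 and 3.04 reads of an alpha or beta crystallin in KO, against 3.75, 2.36 and 2.96 in CON, with the KO libraries inside the CON range. With the mean of the gamma crystallins as yardstick, a choice made after the data were seen, Crybb2 (1.36, adjusted p = 0.000556) and Cryab (0.75, adjusted p = 0.00286) were called higher in KO and the other 6 were not called. On that scale 76.9% of all tested genes were called higher and 0.0523% lower, with a median of 1.33.

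Of 6 tested small heat shock protein genes other than the alpha crystallins, 1 rose and 1 fell on the deposited scale, against 2 and 0 with total reads. Hspb8, which encodes a chaperone of the autophagy pathway, had 1302, 2984 and 2158 normalised reads in KO, against 386, 463 and 543 in CON (log2 difference 1.82, adjusted p = 0.00252). Hspb6 had 827, 661 and 720 in KO, against 1419, 1536 and 1530 in CON (-0.88, adjusted p = 0.0194; -0.19, adjusted p = 0.489 with total reads). Hspb1 was not called (0.36, adjusted p = 0.305) but was called higher with total reads (1.19, adjusted p = 0.00687). Another 6 tested genes carry the name crystallin but are outside the alpha, beta and gamma lists: Cryl1, Crym, Cryz, Cryzl1, Crybg1 and Crybg3. Limma on the deposited scale and voom with the same size factors both called 0 of these 6 (median 0.17). Voom with total reads called 2 higher, Cryz (0.61, adjusted p = 0.0496) and Cryzl1 (0.77, 0.0441). On the deposited scale, an unadjusted p under 0.05 was reached by 1 of the 6, and the lowest adjusted p was that of Cryl1 (0.73, adjusted p = 0.0976).

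Among 25 tested regulators of crystallin genes, 2 rose and 4 fell on the deposited scale (median log2 difference -0.36), against 5 and 0 with total reads. The genes that fell were Hsf4, a heat shock factor of the lens (6237, 5725 and 7611 normalised reads in KO, against 14578, 15285 and 13515 in CON; -1.13, adjusted p = 0.00400), Maf (10193, 6408 and 7210.4 in KO, against 14313, 18536 and 21133 in CON; -1.17, adjusted p = 0.00856), and the RNA-binding protein genes Celf1 (-1.09, 0.0133) and Tdrd7 (-0.95, 0.0312). With total reads none of these 4 was called (-0.31, -0.34, -0.33 and -0.14, adjusted p from 0.104 to 0.683), and against the fibre genes they stood at -0.08, -0.12, -0.04 and 0.10, not called. The homeobox genes Pax6 (0.92, adjusted p = 0.0156) and Meis1 (0.95, 0.0139) rose. Celf1 and Tdrd7 were named because so few were called, after their values were seen. Values not called include Sox1 (-1.03, adjusted p = 0.0617), Pitx3 (-1.72, 0.0731; ratio of KO to CON means 0.0602) and Prox1 (-0.36, 0.459). Pitx3 had 64.5, 25.2 and 20.6 normalised reads in KO, against 1462, 299 and 72.3 in CON, so its CON mean rests mostly on CON 1. Foxe3 and Mafa had too few reads to be tested.

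Markers of other cells moved in the same libraries. Of 13 tested macrophage and microglia markers, 10 rose (5 with voom and the same size factors, 7 with total reads) and 0 fell (median log2 difference 1.75), and the 14 listed genes summed to 6664 to 20496 normalised reads in KO and 1712 to 3050.3 in CON. Cd68 (2.37, adjusted p = 0.00103; 10.2 times the CON mean in KO) and C1qa (2.12, 0.00254) had the smallest p, and Adgre1, Ptprc and Itgam were at 0 in at least 1 CON library. Of 8 tested retina markers, 2 rose (3 with voom and the same size factors, 3 with total reads), Six6 among them (1.78, adjusted p = 0.000372), and 0 fell (median 0.77). An unadjusted p under 0.05 was reached by 5 of the 8. Otx2 (0.89), Rax (0.82) and Crx (0.72) stood higher in KO but were not called on the deposited scale (adjusted p from 0.0906 to 0.143). The 12 listed retina genes summed to 8453 to 10473 in KO and 1866 to 4522 in CON. Rcvrn had 0.576 to 9.51 normalised reads in KO and 0 in CON, Pou4f2 0 to 22.8 in KO and 0 in CON, and Nrl 0 to 27.0 in KO and 0 to 75.5 in CON. The neuronal genes Tubb3 (0.49), Stmn2 (0.41) and Snap25 (0.15) were not called (adjusted p from 0.456 to 0.827). Crybb2 and Cryab are also expressed in the retina in mice, and the part of retina or immune cells in their values was not tested.

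Of 6 tested pigment cell markers, 1 rose (Tyrp1, 0.92, adjusted p = 0.0398) and 0 fell (median 0.50); voom called 0 with the same size factors and 4 higher with total reads. The 7 listed summed to 11735 to 18373 normalised reads in KO and 8557 to 10972 in CON, and Rpe65 had no reads in any of the 6 libraries. Lens epithelium markers went both ways, with 2 of 7 higher (Pax6 and Aqp1, 1.00, adjusted p = 0.0312) and 3 lower (3 and 0 with total reads), among them Cdh1 (-1.67, 0.0100) and Fgfr3 (-1.27, 0.0108). The third was Slc38a3 (-1.19, 0.0308), and Foxe3, the defining gene of the list, had 0 to 4.21 normalised reads in KO and 2.95 to 514 in CON. The listed epithelium genes summed to 19688 to 22479 in KO and 10518 to 18753 in CON.

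Of 7 tested vessel markers limma and voom called 0, 1 had an unadjusted p under 0.05, and the 9 listed summed to 1082 to 4196 normalised reads in KO and 2128 to 2631 in CON. Cdh5 came nearest (-0.88, adjusted p = 0.0691). Of 3 tested mesenchyme markers Postn rose (1.78, adjusted p = 0.0265) and Pdgfra fell (-1.40, 0.00616), neither with total reads, with sums of the 8 listed of 739 to 1105 in KO and 959 to 1356 in CON. Of 4 tested red cell genes Hba-a2 fell (-1.06, adjusted p = 0.0343; not called with total reads), with sums of 2253 to 3631 in KO and 4414 to 6826 in CON. None of the 8 muscle markers had enough reads to be tested, with sums of 76.3 to 155 in KO and 2.95 to 63.3 in CON, in tissue where Cryab would also be expressed. The part of these cells in the crystallin values was not tested.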

How the data were processed

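RNA of P1 mouse lenses was sequenced in 3 Gclc KO and 3 Gclc CON libraries. Per the labels' protocols, lenses were kept in RNAlater, RNA was extracted with the RNeasy Micro kit and libraries were made with a NEBNext low-input kit. Per the submitters' processing notes, the tools were Trimmomatic, HISAT2 2.1.0, featureCounts 1.6.4 and DESeq2 (version given as 2.11.0.6), with mm9. The deposited table holds log2 values after a variance-stabilising transformation, with 6.504 for a gene without reads. How reads of 2 genes or both mates of a pair were counted is not given in the sources used here.

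The transformation was inverted, and 100% of values came within 0.1 of a whole read. Size factors computed anew from these reads by the median-of-ratios method equalled those of the deposited values. Symbols, transcript lengths and neighbours came from GRCm38 annotation, which matched 25275 identifiers, and were used without coordinates of the files' own build. The difference between KO and CON was fitted on the log2 values with limma 3.58.1 (lmFit and eBayes with a trend, no covariate; R 4.3.3) for the 11468 genes whose mean was at least 1 unit above the lowest value. A gene was called where the Benjamini-Hochberg adjusted p over all of them was under 0.05. The same fit was run on values minus the mean of 16 fibre genes, and minus the mean of the other 7 members (of all 8 for other genes). Shares were compared with exact permutation tests. Only the plain fit of KO against CON was tested on simulated reads, with each gene drawn independently of the others. The fits on subtracted values and the voom fits were not tested in this way.

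Members, lists and rules were chosen with earlier results of these data known. The text names the 8 members, Gclc, all gamma crystallins, up to 2 genes per list and direction with the smallest p, neighbours of members, and the 5 genes nearest in pattern to Cryaa, Cryab, Crybb2 and the mean of the 8. Genes of unnamed loci were left out, a listed gene is not reported here by name, and others were chosen after their values were seen. Alternatives were other filters, scalings, references, weights and covariates, and each library left out in turn.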

Additional observations from a re-analysis of the deposited data

How the results depend on the processing

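Of the alternatives for single genes and shares, 294 values kept their direction and side of the threshold or moved by less than the spread, 56 lost a call, 10 gained one, 12 moved and 4 reversed. The cause was not tested for these. The reversed values were Cryab at 0.49 and Crybb3 at 0.0732 with quantile normalisation, Cryab at 0.32 with total reads, and Crybb2 at -0.44 without CON 1 (0.42 without CON 2). Genes called over the whole table numbered 1297, against 802 with a filter of 3 units, 3399 with voom and total reads, 863 with voom and non-crystallin reads (where the median of all genes stood at 0.23), 2152 with library weights, 243 with the name style covariate, and 533 (without KO 2) to 1943 (without CON 1) with 1 library left out. The alpha and beta crystallins called lower numbered 6, against 1 without a filter, 1 with quantile normalisation, 0 with the name style covariate (which leaves KO 1 as the only KO library in the contrast), and 1 (without CON 2 or CON 3) to 7 (without CON 1) with 1 library left out. Those called higher numbered 0, against 2 with quantile normalisation and 1 with total reads. Against fibre genes, 0 were lower, and 0 to 5 with 1 library left out (5 without CON 1). Apart from the other members, 6 were called, and 2 to 6 with 1 library left out. Of reads outside the gamma crystallins, the 8 genes took 37.9% in KO and 57.8% in CON. Fits with 1 library fewer have fewer degrees of freedom. Without a filter, the log2 differences of the 8 genes were unchanged and only their SEs grew, for Cryaa from 0.37 to 0.74.

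KO and CON libraries of equal replicate number had residual correlations of -0.364, -0.128 and -0.140. Other pairs were not compared with them, so these values cannot show whether the libraries were paired. With the replicate number as a block, 2 of the 8 genes were called lower, Cryba2 (adjusted p = 0.0342) and Cryba4 (0.0494), and 914 genes were called over the whole table. CON 2, with the fewest reads, still held 73660 reads of Crybb2, the least abundant of the 8, so counting error was small beside the spread between libraries.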

Other observations

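Among the 8 genes, Cryba2 and Crybb1 had the most similar pattern over the 6 libraries, with a Euclidean distance of 0.0709 between their centred log2 values. Crybb2 stood 0.979 from Cryab and 1.87 to 2.14 from the other 6. Outside the family, the tested genes nearest to the mean of the 8 were Gng5 (distance 0.101), Ndufv3 (0.143), Ndufs5 (0.209), the fibre gene Bfsp2 (0.213) and Bnip3 (0.215). Nearest to Cryaa were Chrng (0.177), Gstm7 (0.203), Rnf113a1 (0.230), Snx18 (0.283) and Scgn (0.308), whose log2 differences ran from -1.46 to -1.27. Cryab had S100a16 (0.124), Psmb3 (0.128), Nsmce1 (0.129), Ost4 (0.152) and Swi5 (0.163) beside it. Crybb2 had no neighbour as close: Cdk17 came first (0.259), then Cyb5r1 (0.350), Ndst1 (0.362), Ct55 (0.442) and Tasor (0.479). These distances rest on 6 libraries that share their scaling, and they carry no test.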
